A study of Mus musculus with 4 samples.

Results

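The metallothionein and oxidant defence genes described here are 10 genes: the metallothioneins Mt1 and Mt2, and Hmox1, Nqo1, Srxn1, Txnrd1, Gclc, Gclm, Gsta3 and Gsta4, which are best known as targets of the transcription factor Nrf2. They were chosen by name, and with earlier results of these data known. Shares of members set beside those of all genes therefore describe the members and test nothing. Every probe set that the platform's annotation pairs with 1 of them alone was taken. This gave 19 of the 45101 probe sets on the array and 10 of 18194 genes with a probe set of their own. Expression was measured in embryonic fibroblasts of FAK +/+ (wild type) and FAK -/- (knockout) mice, where FAK is focal adhesion kinase, a tyrosine kinase at sites where integrins attach cells to matrix. The 4 groups were wild type untreated, wild type with endothelin-1 (ET-1, a vasoactive peptide with receptors on many cell types), knockout untreated and knockout with ET-1, each on 1 Affymetrix mouse array. All cells were at passage 5, had been without serum for 24 h, and were then kept for 24 h with or without ET-1. The labels name neither the ET-1 dose nor the number of embryos or lines behind each genotype. The questions the design poses are how the genes differ without FAK, how they differ after ET-1, and whether both genotypes differ alike after ET-1.

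Metallothioneins are small cysteine-rich proteins that bind zinc and copper, and their genes are switched on by metals through the transcription factor Mtf1, and also by glucocorticoids and oxidants. Nrf2, the product of Nfe2l2, is held by Keap1 and destroyed in unstressed cells. When oxidants or electrophiles modify Keap1, Nrf2 reaches the nucleus and binds antioxidant response elements, where Bach1 competes with it. Its targets make and use glutathione (Gclc, Gclm, Gsta3, Gsta4), reduce thioredoxin and peroxiredoxins (Txnrd1, Srxn1), and break down heme and quinones (Hmox1, Nqo1). In fibroblasts these genes are a common readout of oxidative and metal stress.

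The sequence before the start of Mt2 is shown because Mt2 had the most negative ET-1 differences among the members, and that of Srxn1 because it was lower both after ET-1 and in the knockout. Both are the 250 bases before the gene's start, in the gene's own direction, from RefSeq (GRCm38.p6). The Mt2 stretch is chr8:94172368-94172617 on the plus strand and that of Srxn1 is chr2:152105274-152105523 on the plus strand. Capitals mark matches to the core of the metal response element, TGCACNC or TGCGCNC, and to the core of the antioxidant response element, TGACNNNGC, on either strand.
Mt2: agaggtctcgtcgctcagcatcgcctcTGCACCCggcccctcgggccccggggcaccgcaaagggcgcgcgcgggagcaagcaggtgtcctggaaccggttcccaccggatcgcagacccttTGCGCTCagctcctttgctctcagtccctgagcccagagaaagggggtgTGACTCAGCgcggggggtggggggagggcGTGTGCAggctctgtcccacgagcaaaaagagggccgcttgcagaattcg
Srxn1: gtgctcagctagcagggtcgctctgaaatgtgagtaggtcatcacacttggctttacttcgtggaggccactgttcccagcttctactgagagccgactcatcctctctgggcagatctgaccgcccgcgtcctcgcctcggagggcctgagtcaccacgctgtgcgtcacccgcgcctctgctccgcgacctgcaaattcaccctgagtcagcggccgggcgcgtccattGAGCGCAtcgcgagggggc
RefSeq windows, which run from 250 bases before to 50 after a start, matched 7 of the 10 members, in 9 windows. The Mt2 window held 4 matches to the metal element core, the fourth at bases 5 to 11 after the start, and 0.517% of all 32851 windows hold 4 or more. It also held 1 match to the antioxidant core. That match, TGACTCAGC at bases -79 to -71, also holds the letters TGACTCA of the AP-1 site. The printed Srxn1 stretch holds the same letters on the other strand (TGAGTCA), in separate places that capitals do not mark. The Mt1 window held 3 matches to the metal core (TGCACAC at -23, TGCACTC at 3 and TGCGCTC at 21), and 1.97% of all windows hold 3 or more. It lies mostly inside the span of the annotated gene and is not printed. The match in the Srxn1 stretch is to the metal core, which 25.7% of all windows hold at least once. At least 1 antioxidant core was also found in the windows of Srxn1 (at bases 29 to 37), Gclm, Gsta3 and 1 of the 3 Txnrd1 windows, and 12.4% of all windows hold 1 or more. The Gclm match overlaps 1 of the 3 metal cores in its window. The Nqo1 window held neither. These matches describe letters in a window and were not tested as binding sites.

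The deposited values are log2 signals, and a difference of 1 is 2-fold. A single array stands for each group, so nothing measures the spread between cultures on its own, and single differences carry no error. By the Gapdh control 1 array stood apart. The 3' probe set exceeded the 5' one by 3.79 in ET-1-treated wild type and by 0.85 to 0.90 in the other 3 arrays. By the Actb control the gap was 1.81 in that array, 0.66 in untreated wild type, and 1.30 and 1.27 in untreated and ET-1-treated knockout. The ET-1-treated wild-type array enters every wild-type ET-1 difference and every genotype difference after ET-1, and its part in them was not tested. Fibroblast markers were present, with 13 of 14 above the level filter (log2 8.90, the median of all values, in at least 1 array). Their summed signal (linear, brightest probe set of each gene) was 191060, 209461, 130126 and 119733 in untreated and ET-1-treated wild type and untreated and ET-1-treated knockout. In the same order, the sum over 5 mesothelial markers was 14210, 6340, 76010 and 65933, and that over 9 epithelial markers 14112, 9480, 39173 and 30928. By limma, 8 of 13 fibroblast markers fell and 1 rose in the knockout, 4 of 5 mesothelial markers rose and 0 fell, and 4 of 8 epithelial markers rose and 1 fell. These shifts move with the genotype differences below. Markers also move with ET-1, unevenly within a list. In wild type Krt18 differed by -3.07, Krt14 by -3.24 and Upk3b by -3.51, but Epcam by 0.09, Krt19 by -0.03 and Msln by -0.01. In the knockout the fibroblast markers Thy1, S100a4 and Prrx1 differed by -2.10, -1.42 and -1.25. Pdgfra, Fn1, Dcn and Lum were higher there, by 0.73, 0.18, 0.14 and 0.13. The part of these marker shifts in the member differences was not tested. On bulk RNA fewer cells of a type and less RNA per cell cannot be told apart. Of 6 endothelial markers 2 were above the filter (Kdr and Esam, at 10.06 to 10.63), while Pecam1 and Cdh5 read 7.44 to 7.76. Of 6 macrophage markers 3 were above it and 1 rose in the knockout (Csf1r, by 1.12 untreated and 1.06 after ET-1), while Ptprc read 6.58 to 6.70. Of 5 muscle markers 4 were above it and 0 rose or fell. In the order above, the sums were 3304, 3259, 3063 and 3062 for endothelial, 3169, 3068, 4606 and 4077 for macrophage and 4256, 5859, 5837 and 7067 for muscle markers. The gene that encodes FAK was not analysed here, so the genotype labels were not checked against it.

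**Figure D1:**
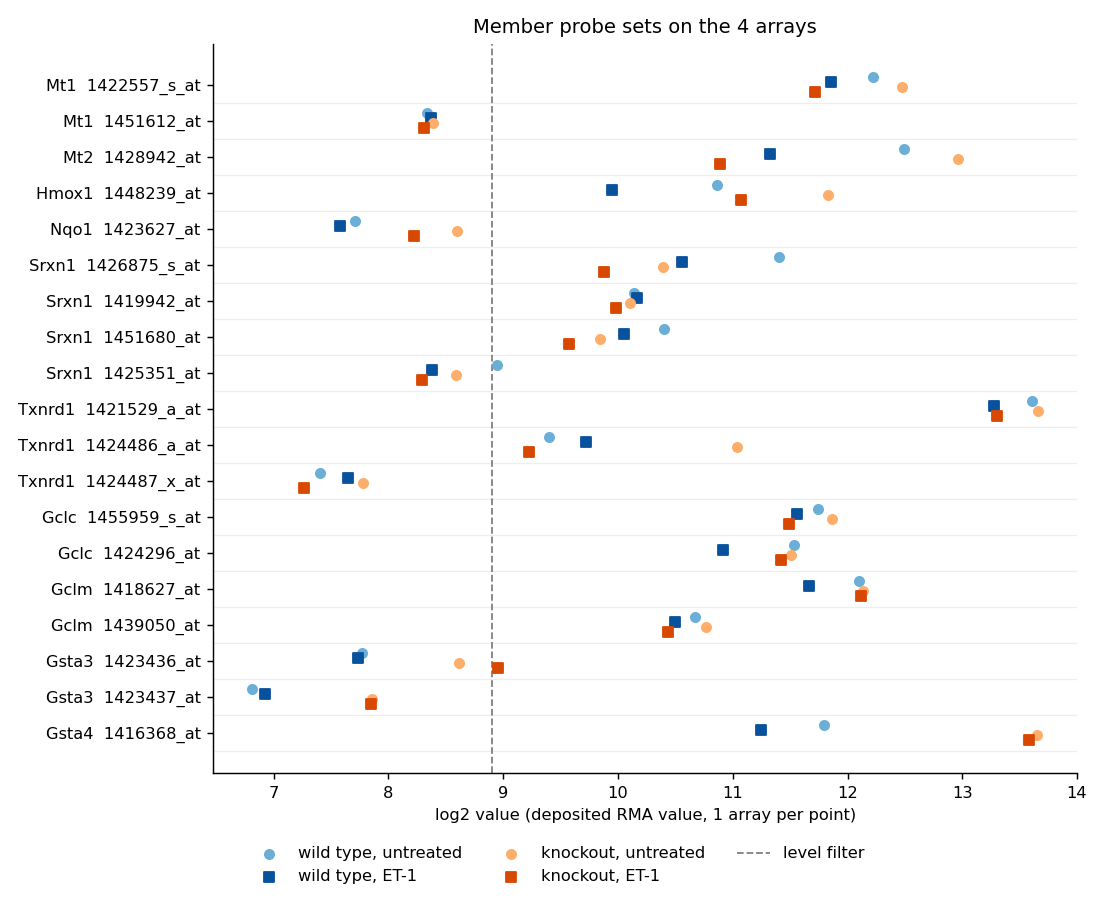
Log2 value of each of the 19 member probe sets (rows, named by gene and probe set) on the 4 arrays; circles are untreated and squares ET-1-treated, blue wild type and orange knockout, 1 array per point. Mt2 reads 12.49 and 12.97 untreated against 11.33 and 10.89 after ET-1, Gsta4 and Gsta3 lie higher in both knockout arrays, and 4 probe sets lie wholly below the dashed level filter.

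After ET-1 the metallothionein and oxidant defence genes read lower in both genotypes. By the brightest probe set of each gene, 9 of the 10 were below untreated in both wild type and knockout, and Gsta3 was the exception. In wild type all 9 genes above the level filter were lower, against 43.1% of the 12290 genes tested. Of these, Gsta3 was at -0.03, and at 0.0028 once array medians were subtracted. Of the 9 genes above the level filter (Nqo1 was not), 8 were lower in both, against 27.4% of all genes. Because members were chosen with earlier results of these data known, such shares and medians are no test. The 9 had a median of -0.44 in wild type and -0.38 in knockout cells, and the medians of all genes tested were 0.05 and -0.02. In the knockout alone, which leaves out the array that stood apart, 8 of 9 were below 0, as were 55.3% of all genes. The ET-1 differences of the genotypes share no array. Of the 15 member probe sets above the filter, 13 were lower in wild type, 14 in the knockout and 12 in both, against 47.6%, 53.5% and 27.8% of all 24625 such probe sets.

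No member passed the test of the ET-1 difference averaged over genotypes. The test was limma on an additive model of genotype and treatment, which leaves 1 residual degree of freedom, the gap between the ET-1 differences of the genotypes. The error of each difference combines that gap with a variance shared across genes, which carries 2.996 prior degrees of freedom. Without replicate cultures, spread between cultures cannot be told apart in it from a true gap between the genotypes. At an adjusted p of 0.05 it called 0 of 9 members and 0% of all 12290 genes, with a lowest adjusted p of 0.78. At an unadjusted p under 0.05 by limma stood 4 of the 9 members (Mt1, Mt2, Hmox1 and Srxn1), and 643 genes (5.23%), of which 207 (1.68% of all) were lower after ET-1. A count of 0 in so small a design does not show that the genes did not differ.

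Mt2, a metal-binding metallothionein, read 12.49 in untreated wild type, 11.33 in ET-1-treated wild type, 12.97 in the untreated knockout and 10.89 in the ET-1-treated knockout. Both ET-1 arrays lay below both untreated arrays. Wild type differed by -1.16 after ET-1 (2.24-fold lower) and the knockout by -2.07 (4.21-fold lower). Of the 12290 genes, 96 had a lower ET-1 difference in wild type and 3 had one in the knockout. At 2-fold or more lower stood 1 of 9 members per genotype, Mt2 both times, against 1.17% (wild type) and 0.277% (knockout) of all genes. At 2-fold or more higher stood 0 members, against 0.781% and 0.236%. Averaged over genotypes Mt2 differed by -1.62 ± 0.28 (SE, limma adjusted p = 0.78).

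Mt1, which encodes the other metallothionein made in most tissues and lies next to Mt2 in the genome, read 12.22, 11.85, 12.47 and 11.72 in the same order of arrays by its brighter probe set. Here too both ET-1 arrays lay below both untreated ones, by 0.37 in wild type and 0.75 in the knockout on the log2 scale. Its other probe set stayed between 8.31 and 8.39, below the level filter, and showed differences of 0.04 and -0.09. The brighter probe set carries the suffix _s_at, which marks probes shared by several transcripts, so signal from related metallothionein transcripts cannot be told apart from that of Mt1. The isoforms Mt3 and Mt4 were below the level filter.

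Hmox1, heme oxygenase 1, splits heme into biliverdin, iron and carbon monoxide. It read 10.86 and 9.95 in untreated and ET-1-treated wild type, and 11.83 and 11.07 in the knockout. Within each genotype the ET-1 array was the lower one, by 0.91 in wild type (1.88-fold) and 0.76 in the knockout (1.69-fold). The ET-1-treated knockout still read above untreated wild type. Hmox1 differed by -0.84 ± 0.13 averaged over genotypes (SE, limma adjusted p = 0.78), and 27 genes had a lower unadjusted p. Nqo1, a quinone reductase and a widely used Nrf2 readout, was dim on all arrays, at 7.71, 7.58, 8.60 and 8.22. Its ET-1 differences of -0.13 and -0.38 lie below the level filter and were not tested.

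Srxn1, sulfiredoxin, repairs peroxiredoxins whose active cysteine has been over-oxidised. Its brightest probe set, also _s_at, read 11.40 and 10.56 in untreated and ET-1-treated wild type and 10.39 and 9.88 in the knockout. Wild type differed by -0.84 after ET-1 and the knockout by -0.51. Of the other 3 probe sets, 2 were lower after ET-1 in both genotypes, at -0.35 and -0.27 for one and -0.56 and -0.30 for the other, and the remaining one was at 0.03 and -0.12. The mean over all 4 gave -0.43 and -0.30. At -0.5 or lower in both genotypes, a bound set after the values were seen, stood Mt2, Hmox1 and Srxn1 among 21 genes (0.171% of all tested).

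Txnrd1, the cytosolic thioredoxin reductase, was bright by 1 probe set, at 13.61, 13.27, 13.66 and 13.30. Untreated arrays were above ET-1 arrays in both genotypes, by 0.33 and 0.36. A second probe set behaved otherwise: it read 9.40 and 9.72 in wild type and 11.04 and 9.23 in untreated and ET-1-treated knockout. The untreated knockout stood alone as the high array there, and ET-1 differences were 0.32 for wild type and -1.81 for the knockout. The suffix of both probe sets (_a_at) marks probes that bind several transcripts of 1 gene, and which transcripts each one reads was not analysed here. The third probe set lay below the level filter on all 4 arrays (7.27 to 7.78) and gave 0.24 and -0.51, the same pair of signs. The mean of all 3 was 0.08 in wild type, which turns the sign given by the brightest probe set, and -0.89 in the knockout.

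Gclc and Gclm encode the catalytic and modifier subunits of glutamate-cysteine ligase, the first enzyme of glutathione synthesis. Gclc read 11.74, 11.56, 11.87 and 11.49 by its brightest probe set, and Gclm read 12.10, 11.66, 12.14 and 12.12. For Gclm 3 arrays lay within 0.04 of each other, and ET-1-treated wild type was the low one. The ET-1 differences were -0.18 and -0.38 for Gclc and -0.44 and -0.02 for Gclm in wild type and knockout. The second Gclc probe set gave -0.63 and -0.09 and the second Gclm probe set -0.17 and -0.33. The brightest Gclc probe set also carries the suffix _s_at. All 4 probe sets of the ligase were thus lower after ET-1 in both genotypes, and the order of the genotypes depended on the probe set.

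Gsta3 and Gsta4 are alpha-class glutathione transferases, and Gsta4 is known for removing the lipid peroxidation product 4-hydroxynonenal. Gsta4 differed by -0.55 after ET-1 in wild type and by -0.08 in the knockout. Gsta3 differed by -0.03 and 0.35 by its brighter probe set and by 0.11 and -0.01 by the other. Gsta3 rose above the level filter only in the ET-1-treated knockout (8.96).

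No member differed between genotypes in its ET-1 difference by 2-fold or more, against 2.9% of all genes by the brightest probe set. By the brightest probe sets the largest such gap was that of Mt2, at -0.91 (knockout minus wild type). The second Txnrd1 probe set had -2.13, and the mean of the Txnrd1 probe sets -0.97. Gsta4 had 0.47, Gclm 0.42, Mt1 -0.39, Gsta3 0.38 and Srxn1 0.33. With 4 arrays this gap is the only residual of the fit, and it was not tested.

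**Figure D2:**
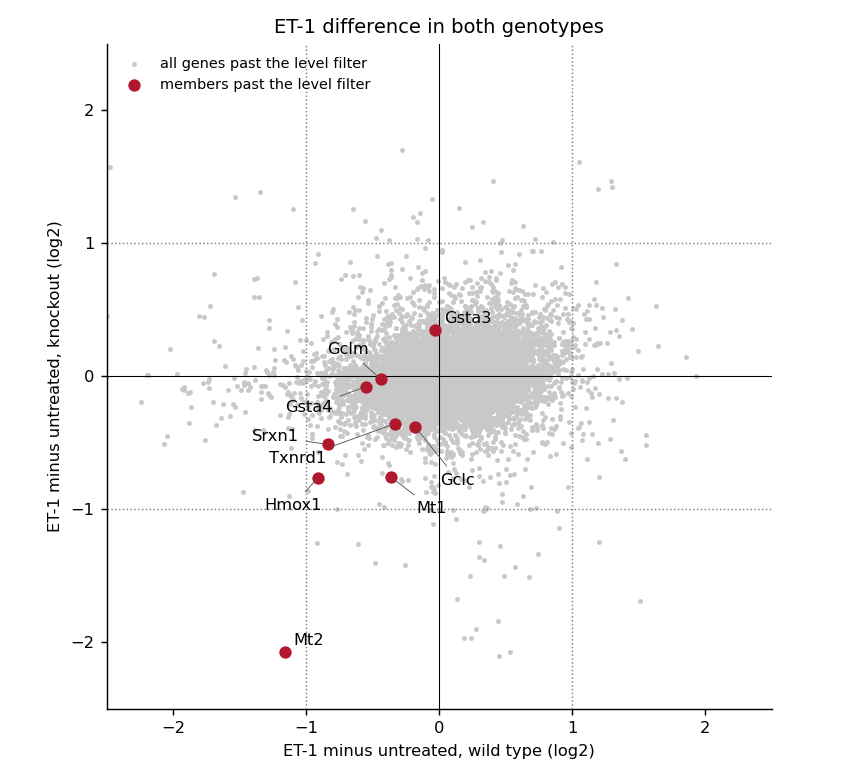
ET-1 minus untreated (log2) in wild type (x axis) against knockout (y axis), 1 gene per point by its brightest probe set, with the 9 members above the level filter in red; dotted lines mark 2-fold, and 15 of 12290 genes fall outside the axes. Mt2 lies alone at -1.16 and -2.07, Gsta3 is the 1 member above 0 in the knockout, and the other 8 members are in the lower left quadrant.

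Between genotypes the members split. By limma, averaged over treatments, 3 of the 9 rose in the knockout (Gsta4, Hmox1 and Gsta3), 1 fell (Srxn1) and 5 did not pass (Mt1, Mt2, Txnrd1, Gclc and Gclm). Gsta3 entered the test through its ET-1-treated knockout array alone, so its call and its place in the counts here are not support. Without the filter, where every gene is tested, its limma adjusted p was 0.0252. The share called among all 12290 genes was 13.6%, with 6.6% higher and 7.05% lower. All 4 calls had the same sign in both treatment states, and so in the untreated pair that leaves out the array that stood apart. A call requires a gap between the states that is small beside their mean. The shared sign therefore follows from the call and is no support. Above 0 in the knockout in both treatment states were 5 of 9 (Gsta4, Hmox1, Gsta3, Txnrd1 and Gclm), against 35.7% of all genes, and the untreated values of Txnrd1 (-0.021) and Gclm (-0.036) turned with quantile normalization. When limma was fitted to all 24625 probe sets above the filter, 1 of the 4 calls remained, that of Gsta4 (adjusted p = 0.0377), and Hmox1 (adjusted p = 0.0554), Srxn1 (0.0776) and Gsta3 (0.104) did not pass.

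Gsta4 had the largest genotype difference among the members. It read 11.80 and 11.25 in untreated and ET-1-treated wild type, and 13.65 and 13.58 in the knockout. Both knockout arrays lay above both wild-type arrays, by 3.62-fold untreated and 5.03-fold after ET-1. The averaged difference was 2.09 ± 0.20 (SE, limma adjusted p = 0.0112). Gsta3 pointed the same way at a far dimmer signal, with 7.77 and 7.73 in wild type against 8.61 and 8.96 in the knockout. Its fitted difference of 1.04 ± 0.14 (SE, limma adjusted p = 0.0238) rests on a gene that passed the filter only in the group where it is high. The second Gsta3 probe set, below the filter, read 6.81 and 6.93 in wild type and 7.85 and 7.84 in the knockout, so both probe sets separated the genotypes.

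Hmox1 was 1.96-fold higher in the untreated knockout and 2.17-fold higher after ET-1, and rose by 1.04 ± 0.13 averaged over treatments (SE, limma adjusted p = 0.0202). Its genotype difference and its ET-1 difference were of like size and of opposite sign. Nqo1 was higher in the knockout too, by 0.89 untreated and 0.64 after ET-1, below the level filter. Without that filter Nqo1 passed (0.77, limma adjusted p = 0.0256).

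Srxn1 was the member that fell, by 0.85 ± 0.14 (SE, limma adjusted p = 0.0341, or 0.0601 without the level filter), and was 2.02-fold lower in the untreated knockout and 1.61-fold lower after ET-1. These values come from an _s_at probe set, so, as for Mt1, signal from other transcripts cannot be told apart. The other Srxn1 probe sets were lower by less, at -0.56 and -0.48, -0.35 and -0.09, and -0.04 and -0.18. The mean of all 4 was -0.49 untreated and -0.36 after ET-1, and -0.43 averaged over treatments (limma adjusted p = 0.0466). Txnrd1, its partner in the thioredoxin system, differed by 0.05 and 0.03 by its brightest probe set. Its second probe set was 1.64 higher in the untreated knockout and -0.49 after ET-1.

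The metallothioneins and the ligase had no genotype call. Mt2 was higher in the knockout by 0.47 untreated and lower by 0.43 after ET-1, and Mt1 gave 0.26 and -0.13 by its brighter probe set. For both the untreated knockout was the highest of the 4 arrays and the ET-1-treated knockout the lowest. Averaged over treatments, Mt2 differed by 0.02 ± 0.28 and Mt1 by 0.06 ± 0.19. Gclc differed by 0.03 ± 0.17 and Gclm by 0.25 ± 0.19 (SE; limma adjusted p = 0.943 and 0.484). The Gclm value rests on the array that stood apart, with 0.04 untreated and 0.45 after ET-1. That of Gclc was 0.13 untreated and -0.07 after ET-1. At 2-fold or more in the knockout stood 1 member higher (Gsta4) and 1 lower (Srxn1) in untreated cells, against 4.78% and 4.59% of all genes. After ET-1, 3 were higher (Gsta4, Gsta3 and Hmox1) and 0 lower, against 5.61% and 6.53%. Of these, Gsta3 passed the filter only through the ET-1-treated knockout array, so its place in that count is not support.

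**Figure D3:**
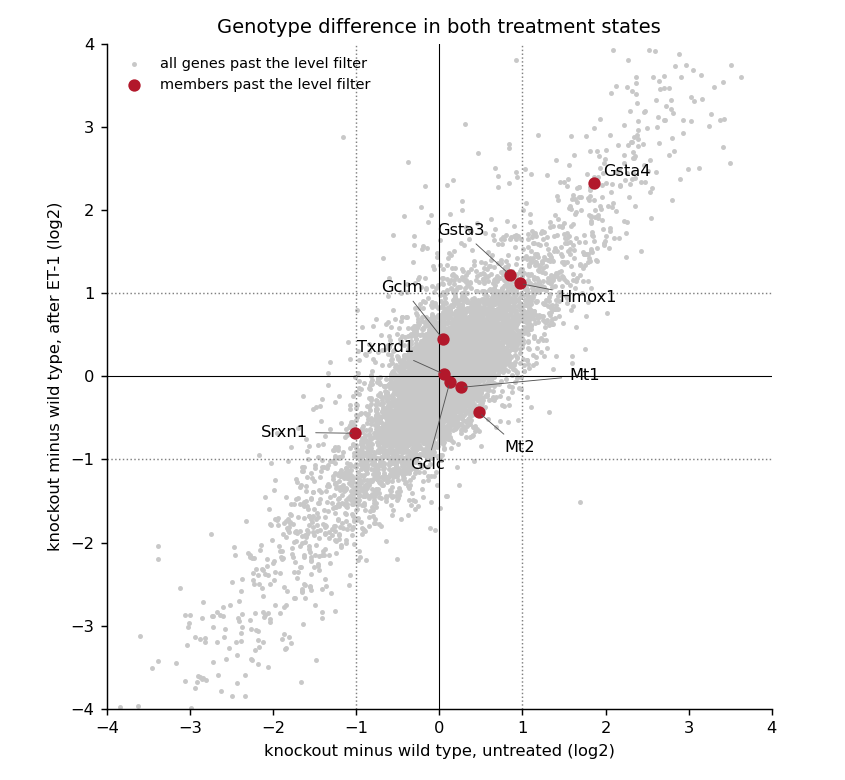
Knockout minus wild type (log2) in untreated cells (x axis) against ET-1-treated cells (y axis), 1 gene per point by its brightest probe set, with the 9 members above the level filter in red; dotted lines mark 2-fold, and 100 of 12290 genes fall outside the axes. Gsta4 at 1.86 and 2.33, Hmox1 and Gsta3 lie in the upper right, Srxn1 lies in the lower left, and Mt1 and Mt2 lie right of and below the centre.

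The members were set beside 103 other genes of metal, glutathione, thioredoxin, heme and quinone handling, in 9 lists. Of these, 95 had a probe set of their own and 86 were above the level filter. By limma 7 rose and 6 fell in the knockout (15.1%, against 13.6% of all genes), and 0 were called after ET-1, with 3 at an unadjusted p under 0.05 (Slc39a10, Bach2 and Osgin1). With all probe sets fitted as features, 5 of these 13 genotype calls remained: Slc39a10, Slc30a1, Mgst1, Gstm2 and Akr1b8. After ET-1, 19 of the 86 (22.1%) were lower in both genotypes, with medians of 0.10 in wild type and -0.02 in the knockout. The members themselves stood at 8 of 9 and at medians of -0.44 and -0.38, and the difference from the other pathway genes was not tested.

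Glutathione transferases beyond the members held 3 genes that rose and 0 that fell among 12. The microsomal transferase Mgst1 rose by 2.52 ± 0.20 (SE, limma adjusted p = 0.00835), reading 11.59 and 11.36 in wild type and 13.86 and 14.13 in the knockout. Over the mean of its probe sets the Mgst1 difference was 1.32. Mgst2 rose by 1.18 and Gstm2 by 0.86. Glutathione peroxidase Gpx1 fell from 13.16 and 12.83 in wild type to 12.21 and 11.78 in the knockout (limma adjusted p = 0.0333), the 1 call among 11 other genes of glutathione synthesis and recycling. In the thioredoxin and peroxiredoxin list none of 9 other genes passed in either direction, and none of 4 superoxide and peroxide removal genes did.

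Among heme and iron genes the transferrin receptor Tfrc rose by 0.70 and the biliverdin reductase Blvrb, which acts on a product of heme breakdown, fell by 0.65, with 8 tested beside Hmox1. Over the mean of its probe sets the Tfrc difference was 0.68 (limma adjusted p = 0.137), which did not pass. Of 12 quinone, carbonyl and NADPH enzymes 2 fell, the aldo-keto reductase Akr1b8 (-1.65 ± 0.17) and the epoxide hydrolase Ephx1 (-0.68). Ptgr1, a reductase of prostaglandins and alkenals, rose by 0.94, the 1 call among 6 export and feedback genes. The list of 13 zinc handling genes held 2 that rose, the zinc importer Slc39a10 (1.52 ± 0.16) and the zinc exporter Slc30a1 (1.31 ± 0.14), and 1 that fell, the importer Slc39a14 (-0.94). The mean of its probe sets gave Slc39a14 -0.28 (limma adjusted p = 0.104), which did not pass. Slc30a1 is itself a known target of Mtf1.

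None of the regulators Mtf1, Nfe2l2, Keap1 and Bach1 passed the test for genotype or ET-1. By their brightest probe sets Mtf1 read 10.45 to 10.59 on the 4 arrays and Nfe2l2 12.13, 12.35, 12.55 and 12.75. The other Mtf1 probe sets above the filter differed after ET-1 by 0.36 and 0.09, and by -0.40 and -0.14, in wild type and knockout. The genotype difference of Nfe2l2 was 0.41 ± 0.16 (SE, limma adjusted p = 0.193). Keap1 differed by -0.03 and Bach1 by -0.16 between genotypes, and both signs turned in the untreated pair (0.05 and 0.04). The second Keap1 probe set was above the filter only in untreated wild type (8.95). It differed after ET-1 by -0.78 in wild type and -0.15 in the knockout, and between genotypes by -0.09 untreated and 0.54 after ET-1. Bach1 was higher after ET-1 by 0.61 in wild type and 0.22 in the knockout, without passing the test. The second Bach1 probe set gave 0.08 and 0.14. Of 11 regulators 1 was called for genotype, the repressor Bach2, which fell by 1.08 ± 0.13 (SE, limma adjusted p = 0.0179). The mean of its probe sets gave Bach2 -0.56 (limma adjusted p = 0.105), which did not pass. At 2-fold or more after ET-1 stood 1 of the 86 other genes, the autophagy receptor Sqstm1 at -1.17 in wild type and 0.13 in the knockout, named after its values were seen.

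**Figure D4:**
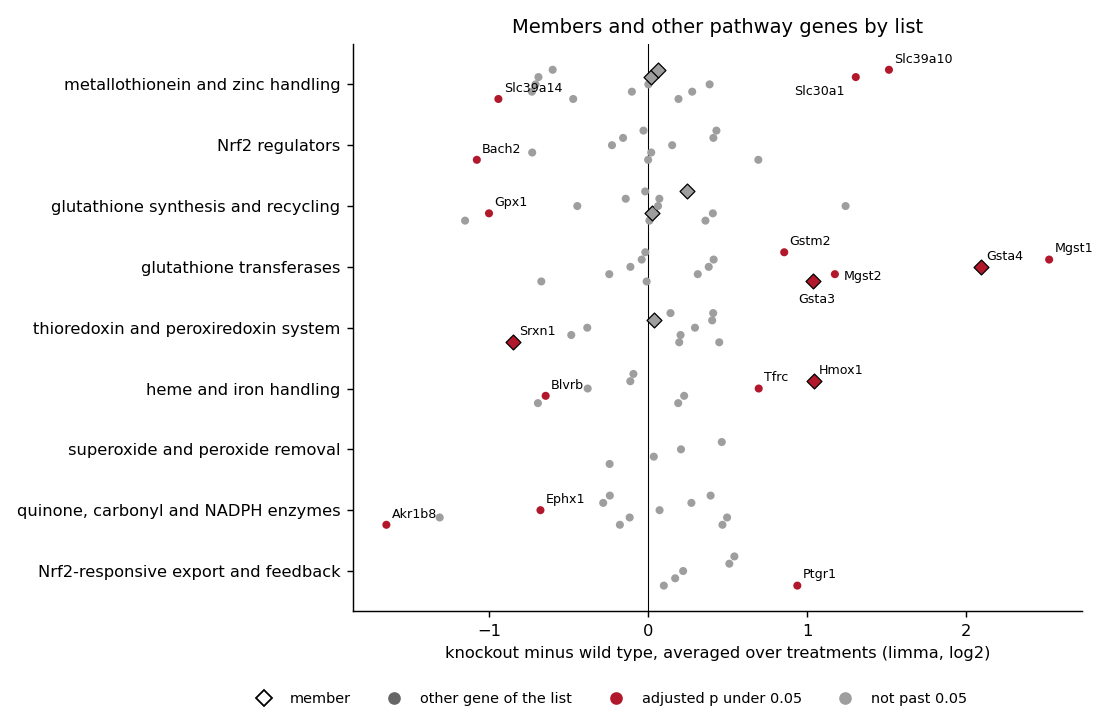
Knockout minus wild type averaged over treatments (limma, log2, x axis) for the members (diamonds) and the other genes of 9 lists (circles) above the level filter, with red for an adjusted p under 0.05. Mgst1 at 2.52 and Gsta4 at 2.09 lie farthest right, Akr1b8 at -1.65 lies farthest left, and Mt1 and Mt2 lie near 0.

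The genes nearest to Mt2 were sought by the Euclidean distance between log2 profiles over the 4 arrays, each centred on its mean. Genes with predicted or clone names were passed over. The nearest to Mt2 among the rest were Tmem43 at 1.08, Mt1 at 1.09 and Rrp7a at 1.10. None of these came close, since the ET-1 difference of Mt2 was larger, and Tmem43 differed by -0.92 in wild type and -0.57 in the knockout. For Hmox1 the nearest were Pfkfb3 at 0.28, Sdf2l1 at 0.36 and Ppie at 0.37. Pfkfb3 read 9.45, 8.70, 10.23 and 9.78 in untreated and ET-1-treated wild type and untreated and ET-1-treated knockout, with the low and the high array the same as for Hmox1. The distances describe 4 arrays and carry no test.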

How the data were processed

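Gene expression of 4 arrays, 1 per group, was analysed. The log2 values that the authors deposited come from RMA, per the submitters' processing notes, whose version is not given in the sources used here. They run from 5.00 to 15.24, a higher floor than RMA commonly gives, so differences of dim genes may be understated. Probe sets were named through the platform annotation, and symbols were matched to RefSeq (GRCm38). The probe set of highest mean over the arrays stood for its gene, and genes with no value above log2 8.90 were left out (12290 of 18194 remained). Differences between single arrays are values with no test, counted at 2-fold. limma 3.58.1 in R 4.3.3 (lmFit, eBayes with intensity trend) fitted genotype and treatment additively with 1 residual and 2.996 prior degrees of freedom, with Benjamini-Hochberg adjustment over all genes at 0.05, and was tested on simulated data. Python 3.11.15 did the rest. Named genes are the 10 members, and from each list up to 3 genes called for genotype and up to 2 at 2-fold after ET-1 in both genotypes. The regulators Mtf1, Nfe2l2, Keap1 and Bach1 were also named, as were the 3 nearest profiles to Mt2 and Hmox1, with predicted and clone names passed over. Members and lists were chosen with earlier results of these data known. Alternatives were the probe set summary, filter, normalisation, eBayes trend, fold and the array that stood apart. Precision is limited by the number of arrays.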

Additional observations from a re-analysis of the deposited data

Results flagged for a closer look

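Several member probe sets moved in opposite directions in both genotypes after ET-1, or in both treatment states between genotypes, and these 14 contrasts over 11 probe sets were not tested. The gap between both differences (knockout minus wild type) is given for each. After ET-1 the wild-type and knockout differences had opposite signs for both dimmer Txnrd1 probe sets (0.32 and -1.81, a gap of -2.13, and 0.24 and -0.51, a gap of -0.75). The same held for both Gsta3 probe sets (-0.03 and 0.35, a gap of 0.38, and 0.11 and -0.01, a gap of -0.12), for the dim Mt1 probe set (0.04 and -0.09, a gap of -0.12) and for 1 Srxn1 probe set (0.03 and -0.12, a gap of -0.15).

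Between genotypes the untreated and ET-1-treated differences had opposite signs for Mt2 (0.47 and -0.43, a gap of -0.91) and for both Mt1 probe sets (0.26 and -0.13, a gap of -0.39, and 0.06 and -0.06, a gap of -0.12). They did so too for both dimmer Txnrd1 probe sets (1.64 and -0.49, a gap of -2.13, and 0.37 and -0.38, a gap of -0.75). Both Gclc probe sets (0.13 and -0.07, a gap of -0.20, and -0.03 and 0.51, a gap of 0.54) and the dimmer Gclm probe set (0.10 and -0.05, a gap of -0.16) also differed in sign. Of these, the Txnrd1 probe set at -2.13 is the one with a gap of 2-fold or more.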

How the results depend on the processing

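No paired analysis was possible because each group holds 1 array. Without the ET-1-treated wild-type array no test remains. All 4 genotype calls kept their sign, which the call itself requires. Of 522 single values under an alternative, 486 kept sign and side of the threshold. Some of these could not change. A filter leaves differences between single arrays as they were, and a gene with 1 probe set is its own mean. The 4 member calls for genotype became 1 with all probe sets fitted as features. Without a filter Srxn1 (limma adjusted p = 0.0601) and Ephx1 (0.0725) lost their calls, and without the intensity trend Blvrb did (0.068). Signs turned at quantile normalization for the genotype difference of Mt2 (-0.035) and Gclc (-0.010), the untreated genotype difference of Txnrd1 (-0.021) and Gclm (-0.036) and the Txnrd1 gap (0.11). With the mean of all probe sets they turned for Keap1 (0.10 between genotypes, -0.20 after ET-1) and Nfe2l2 (-0.0073 after ET-1), for Txnrd1 (0.075 after ET-1 in wild type, -0.28 between ET-1-treated genotypes) and for Gclc (0.22 between ET-1-treated genotypes, a gap of 0.17). With array medians subtracted the wild-type ET-1 difference of Gsta3 turned (0.0028). Without the ET-1-treated wild-type array they turned for Keap1 (0.049 between genotypes, -0.018 after ET-1) and Bach1 (0.039 between genotypes). With the mean of all probe sets Slc39a14, Bach2 and Tfrc lost their genotype calls. Members lower after ET-1 in both genotypes were 7 of 8, 8 of 8, 8 of 9 or 9 of 10, by setting, and Gsta3 was below the filter with the mean of all probe sets and with the stricter filter.

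Counts over all genes at 2-fold moved as follows. In the knockout against wild type the untreated count of 1151 became 684 with the stricter filter and 2453 at 1.5-fold, and the ET-1-treated count of 1492 became 964 and 3101. After ET-1 the wild-type count of 240 became 145 with the mean of all probe sets, 157 with the stricter filter and 1319 at 1.5-fold. The knockout count of 63 became 40, 14 and 286, and the gap count of 356 became 213, 194 and 1529. The filter and the fold change these counts by construction. Across settings the share of higher genes ran from 24.8% to 60.7% in wild type after ET-1 (40.0% as reported), from 41.5% to 71.4% in the knockout (46.0%) and from 40.7% to 63.4% for the gap (54.8%), so which direction held more genes depended on the setting. The ET-1 count by limma was 0 under all settings, with 561 to 1009 features at an unadjusted p under 0.05.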
